A study of Mus musculus with 12 samples.

Results

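Transcripts of 10 genes that build elastic fibers and their microfibrils were measured in the dorsal meninges of young and aged male mice, with and without a mild head injury. The 10 genes were chosen by name and family, with earlier results of these data known, and were Eln, Fbn1, Fbn2, Mfap2, Mfap4, Mfap5, Fbln1, Fbln2, Fbln5 and Emilin1. All 10 were found among the 55385 rows of the count table, and all 10 were among the 18238 genes with enough counts to be tested. The mice were wild-type C57BL/6 males in every group by the labels, and the methods name the young C57BL/6J. Young Sham and Young TBI mice were 10 weeks old at the procedure, and Aged Sham and Aged TBI mice were 20 months old at the procedure by the protocol and 20 to 24 months old by the sample labels. TBI mice received 1 closed-skull impact over the right inferior temporal lobe, Sham mice were anesthetized without impact, and tissue was taken 1.5 months later. The collected meninges did not include the site under the impact. Each group had 3 libraries, and a library held the pooled meninges of 2 mice (2 to 3 where the legends describe it), so that spread between single mice was not measured. Young mice were bought from Jackson and aged mice from a government colony for aging research, so age and supplier cannot be told apart.

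Elastic fibers let a tissue recoil after stretch. They consist of a core of crosslinked elastin, encoded by Eln, laid onto a scaffold of microfibrils whose backbone is fibrillin. Microfibril-associated proteins and emilin sit on or at the edge of that scaffold, fibulins link the elastin precursor to it and to the crosslinking enzymes, and latent TGF-beta binding proteins tether stored TGF-beta to it. In the dura mater, the tough outer layer of the meninges, elastic fibers run among the collagen bundles, and they also form layers in the walls of arteries. Fibroblasts and vascular smooth muscle cells are the usual makers of these proteins.

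Promoter sequences were available for 6 of the 10 genes (Fbn1, Mfap2, Fbln1, Fbln2, Fbln5 and Emilin1), as RefSeq windows of 250 bases before to 50 bases after a start site on GRCm38.p6. Those of Mfap2, Fbln1 and Emilin1, whose transcripts were lower in both aged groups, are shown. That of Fbln5, whose transcript was called higher in Aged TBI, is shown too. Fbn1 was also called lower in both, but its window is not shown. That window held 1 GC box, and its start site lay 1555 bases from the GENCODE start, against 0 to 384 in the 4 shown. Where a gene had more than 1 entry, the one nearest its GENCODE start was taken. Each runs 5′ to 3′ on the strand of the gene, with capitals marking a CCAAT box (CCAAT or ATTGG), a GC box (GGGCGG or CCGCCC) or an E box (CACGTG).
Mfap2, chr4:141010174-141010473, plus strand: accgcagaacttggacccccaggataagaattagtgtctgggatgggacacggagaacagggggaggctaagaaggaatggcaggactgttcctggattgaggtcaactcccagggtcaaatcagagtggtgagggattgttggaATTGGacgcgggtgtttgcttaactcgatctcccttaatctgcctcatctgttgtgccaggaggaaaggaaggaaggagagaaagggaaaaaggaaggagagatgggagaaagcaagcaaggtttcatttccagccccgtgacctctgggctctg
Fbln1, chr15:85205699-85205998, plus strand: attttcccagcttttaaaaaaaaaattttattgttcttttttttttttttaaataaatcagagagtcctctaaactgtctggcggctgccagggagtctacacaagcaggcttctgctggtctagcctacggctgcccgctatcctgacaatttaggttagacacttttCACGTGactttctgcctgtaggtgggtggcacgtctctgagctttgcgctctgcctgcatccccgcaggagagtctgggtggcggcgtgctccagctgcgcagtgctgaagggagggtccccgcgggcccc
Emilin1, chr5:30913536-30913835, plus strand: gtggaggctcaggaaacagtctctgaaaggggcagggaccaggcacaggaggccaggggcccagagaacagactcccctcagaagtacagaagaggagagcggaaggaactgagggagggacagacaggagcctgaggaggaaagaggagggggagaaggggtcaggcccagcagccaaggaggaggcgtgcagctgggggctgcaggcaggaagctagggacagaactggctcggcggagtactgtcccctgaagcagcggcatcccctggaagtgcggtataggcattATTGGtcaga
Fbln5, chr12:101819070-101819369, minus strand: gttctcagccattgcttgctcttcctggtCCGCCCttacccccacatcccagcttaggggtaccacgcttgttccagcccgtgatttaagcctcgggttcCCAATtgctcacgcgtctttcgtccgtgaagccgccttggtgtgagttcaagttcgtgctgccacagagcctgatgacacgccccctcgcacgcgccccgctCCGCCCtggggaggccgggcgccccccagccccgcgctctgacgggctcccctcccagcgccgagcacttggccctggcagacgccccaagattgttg
The windows of Mfap2 and Emilin1 each held 1 CCAAT box, which 37.4% of all 32851 mouse promoter windows of that length also held on either strand. The Fbln1 window held 1 E box, found in 7.15% of windows. The Fbln5 window held 1 CCAAT box and 2 GC boxes, and 35.7% of windows held a GC box. None of the 4 windows held a TATA box spelled TATAAA (13.6% of all windows) or an AP-1 site spelled TGANTCA (7.81%). The share of G and C was 52.0% for Mfap2, 51.7% for Fbln1, 61.7% for Emilin1 and 65.7% for Fbln5, against a median of 52.7%. The matches describe letters only.

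Total counts per library ran from 8092374 to 16087717, and the 10 genes together took 0.242% to 0.340% of them. Levels are given as CPM, read counts scaled to a common library size, after the TMM correction for differences in RNA composition. Beside the libraries' usual spread, Aged Sham 3 stood apart. Its counts differed from those of Aged Sham 1 and 2 by 23.6 and 19.8 times the sampling noise (chi-square per degree of freedom), against 3.49 to 10.7 for the other pairs within a group. It held 973 CPM of the bone matrix gene Ibsp, against 44.2 to 86.3 CPM in the other 11 libraries, and 1033 CPM of the pituitary hormone gene Gh, which was at most 9.34 CPM elsewhere. The muscle gene Acta1 reached 84.0 CPM in Young TBI 3 and 410.0 CPM in Aged TBI 2, and the skin gene Krt5 reached 39.9 CPM in Young Sham 2 and 46.2 CPM in Aged TBI 1. Results that rested on Aged Sham 3 are given with and without it. Fewer cells of a type and less RNA per cell cannot be told apart in such bulk libraries.

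Compared between genes as CPM per kilobase of exon, the 10 transcripts spanned a wide range with a stable top. In Young Sham the microfibril-associated Mfap4 led at a level of 464 ± 38.9 CPM per kilobase (SD, n = 3), followed by Fbln1 at 176 ± 12.8, Emilin1 at 112 ± 8.5 and Mfap2 at 88.7 ± 4.85. These 4 held the same order in all 4 groups, and no library of one overlapped those of the next within a group. Fbln5 and Eln followed at 39.3 ± 1.03 and 34.5 ± 2.97 CPM per kilobase in Young Sham, and their libraries overlapped in Young TBI and in Aged Sham. Fbn1, Fbln2 and Mfap5 lay between 16.6 and 19.2 CPM per kilobase in Young Sham, with Fbn1 and Fbln2 overlapping, as they did in all 4 groups. In Young TBI Mfap5 overlapped Fbn1 too, and in Aged Sham each neighbor in the order from Fbln5 down to Fbn1 overlapped the next. Mfap5 ranked 9 in both young groups and 7 in both aged groups. Fbn2, the fibrillin of embryonic tissue, was lowest in each group at 0.151 to 0.239 CPM per kilobase, resting on 17 to 66 counts per library.

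The age comparisons asked how the aged meninges differed from the young, first without and then with injury. Of the 10 genes, 5 were lower with age in both comparisons and 1 was higher in both. Summed over the 10 genes, the level was 3286 ± 195 CPM for Young Sham, 3381 ± 117 CPM for Young TBI, 2415 ± 37.5 CPM for Aged Sham and 2556 ± 85.7 CPM for Aged TBI (SD, n = 3). The 6 young libraries held 3086 to 3516 CPM and the 6 aged ones 2373 to 2655 CPM, so they did not overlap. Mfap4, Fbln1 and Emilin1, which all fell with age, made up most of the sum, so it does not describe each member. A gene was called when its p-value, adjusted by the Benjamini-Hochberg method over all genes tested with edgeR, was under 0.1, the threshold of the study. Between Young Sham and Aged Sham, 5 members were called lower (Mfap4, Emilin1, Mfap2, Fbln1 and Fbn1), 1 higher (Mfap5) and 4 did not pass. Over all genes tested in that comparison, 7.71% were called lower and 7.89% higher. Between Young TBI and Aged TBI, 6 were called lower (the same 5 and Fbln2), 2 higher (Mfap5 and Fbln5) and 2 did not pass, where 10.3% of all genes were called lower and 9.92% higher. The 2 comparisons share no library, but 1 fit over the 12 libraries gave the spread for both. In both, 6 members were called in the same direction, and the share of all genes for which this held was not computed. The median log2 fold change of the members was −0.38 in sham and −0.44 in injured mice, against 0.00549 and 0.0181 over all genes.

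**Figure D1:**
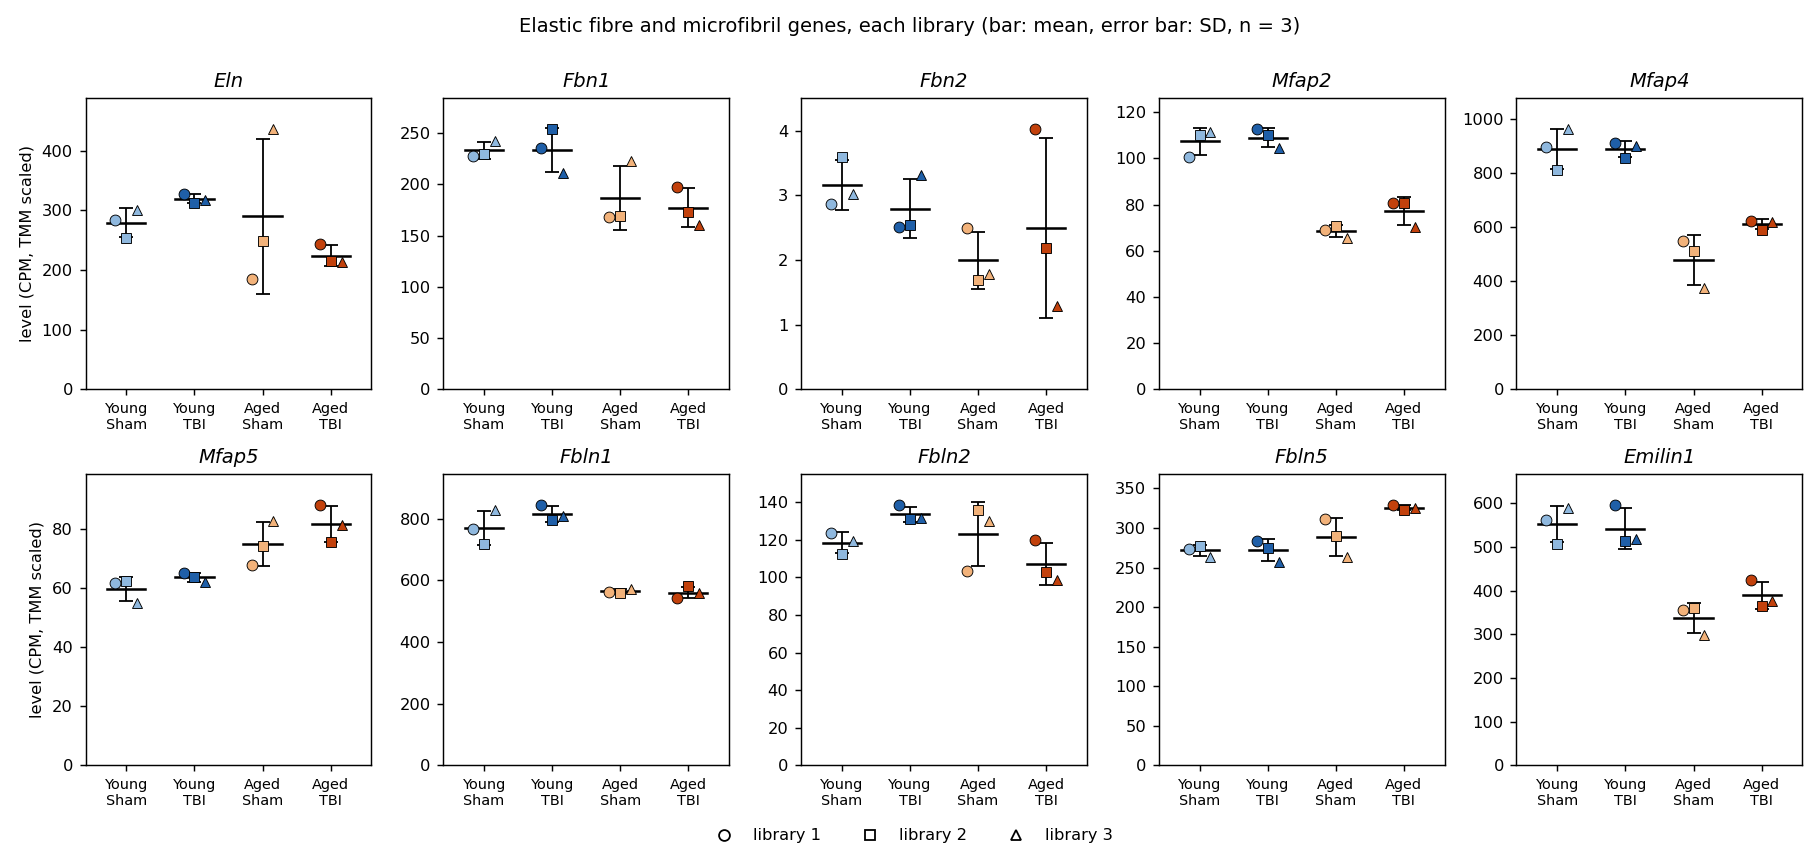
Level of each of the 10 genes (y axis, CPM after TMM scaling, from 0) in the 12 libraries, by group (x axis). Points are libraries, the bar is the mean and the error bar the SD (n = 3). Mfap2, Mfap4, Fbln1 and Emilin1 lay lower in every aged library than in any young one, Mfap5 lay higher, and Eln was highest in Aged Sham 3 at 436 CPM.

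All 3 libraries of one group lay outside the range of the other for 7 of 10 members in sham mice (28.4% of all genes) and for 9 of 10 in injured mice (35.1% of all genes). In sham mice those were the 6 called genes and Fbn2, and in injured mice the 8 called genes and Eln. The share of all genes whose 6 aged libraries all lay above or all below the 6 young ones was not computed.

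**Figure D2:**
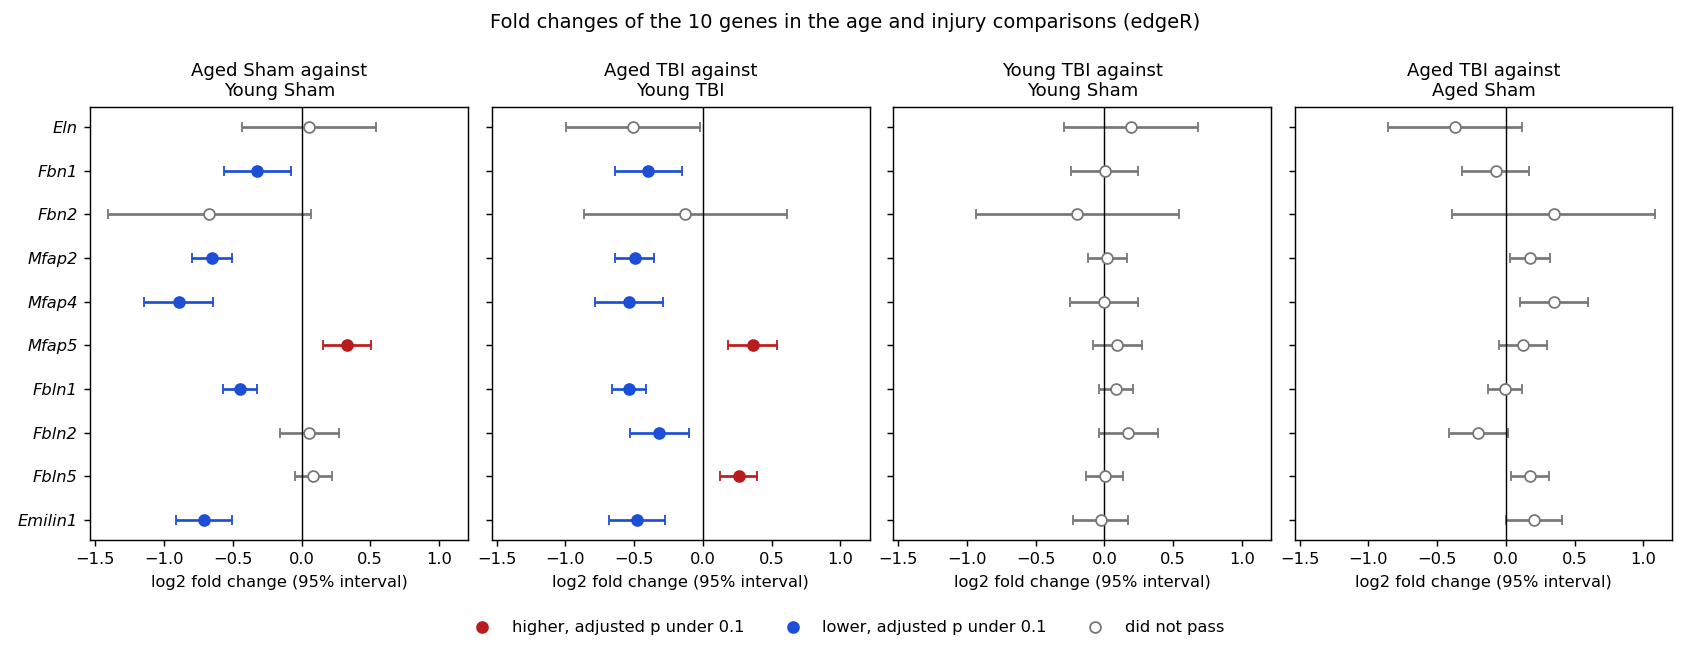
Log2 fold change with its 95% interval (x axis) for each gene (y axis) in 2 age comparisons and 2 injury comparisons, from 1 edgeR fit over the 12 libraries. Filled points passed an adjusted p under 0.1, with 5 lower and 1 higher in sham mice, 6 lower and 2 higher in injured mice, and 0 in either injury comparison.

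Eln encodes tropoelastin, the soluble precursor of the elastic core, and lies on mouse chromosome 5 (chr5:134702593-134747323, minus strand, GRCm38). Its level was 284, 253 and 301 CPM in Young Sham 1 to 3 and 184, 249.5 and 436 CPM in Aged Sham 1 to 3. It was 328, 313 and 317 CPM in Young TBI and 244, 215 and 213 CPM in Aged TBI. The Aged Sham libraries spread around those of Young Sham on both sides, while each Aged TBI library lay below each Young TBI library. The change with age, on the log2 scale, was 0.053 ± 0.22 in sham mice (edgeR, adjusted p = 0.919) and −0.51 ± 0.22 in injured mice (adjusted p = 0.157). Eln in Aged Sham 3 was 2.01 times its mean in Aged Sham 1 and 2. Without that library the change with age was −0.36 in sham mice (adjusted p = 0.0747) and −0.51 in injured mice (adjusted p = 0.00677), and both were called lower. Within Aged Sham the coefficient of variation of Eln was 45%, against 2.33% to 8.60% in the other groups. The bone genes Ibsp (973 CPM) and Dmp1 (67.9 CPM) and the elastin-crosslinking enzyme Lox (422 CPM, against 119 to 221 CPM elsewhere) were highest in the same library. Bone markers did not move together, as Bglap (21.3 CPM) and Sp7 (56.2 CPM) were lowest in it. Smooth muscle Acta2 (347 CPM) and Myh11 (255 CPM) were lowest there. Their part in the Eln level was not tested.

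Fbn1 encodes fibrillin-1, the main backbone of adult microfibrils (chr2:125300594-125507993, minus strand). Its level was 227, 229 and 242 CPM in the Young Sham libraries and 168, 169 and 223 CPM in those of Aged Sham, and 235, 253 and 211 CPM in Young TBI against 198, 173 and 161 CPM in Aged TBI. Every aged library lay below every young library of the same procedure, with Aged Sham 3 nearest to the young. On the log2 scale, aged minus young was −0.32 ± 0.11 in sham mice (edgeR, adjusted p = 0.0944) and −0.40 ± 0.11 in injured mice (adjusted p = 0.0361). The call in sham mice stood close to the threshold and was lost in 8 of 12 fits that left out 1 library, but without Aged Sham 3 it was −0.47 (adjusted p = 0.0108). Leaving out Young TBI 2 (adjusted p = 0.110) or Aged TBI 3 (adjusted p = 0.113) ended the call in injured mice.

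Fbn2 encodes fibrillin-2, which predominates before birth, and lies on chromosome 18. Its level was 2.86, 3.6 and 3.03 CPM in Young Sham against 2.50, 1.70 and 1.78 CPM in Aged Sham, and ran from 2.52 to 3.32 CPM in Young TBI and from 1.29 to 4.02 CPM in Aged TBI. The sham groups did not overlap, whereas Aged TBI spanned the whole Young TBI range. With age the log2 fold change was −0.67 ± 0.34 in sham mice (edgeR, adjusted p = 0.243) and −0.13 ± 0.34 in injured mice (adjusted p = 0.847). The 95% interval in sham mice ran from −1.41 to 0.068, so at 17 to 66 counts per library it held both no change and a fall larger than that of Mfap4.

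Mfap4, a fibrinogen-like glycoprotein that binds microfibrils and elastin, showed the largest fold change with age of the 10 in sham mice (chr11:61485431-61488900, plus strand). Its level was 897, 814 and 963 CPM in the Young Sham libraries and 550.4, 512 and 375 CPM in those of Aged Sham. In injured mice it was 913, 858 and 900.2 CPM in the young and 625, 590.3 and 621 CPM in the aged. All 6 aged libraries lay below all 6 young ones, and Aged Sham 3 was the lowest of them. The change with age, on the log2 scale, was −0.89 ± 0.11 in sham mice (edgeR, adjusted p = 0.00126), a level 46.2% lower, and −0.54 ± 0.11 in injured mice (adjusted p = 0.0104). Without Aged Sham 3, where Mfap4 was 0.706 times its mean in Aged Sham 1 and 2, the change in sham mice was −0.75 (adjusted p = 0.000713).

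Mfap2 and Mfap5 encode MAGP-1 and MAGP-2, a pair of small related glycoproteins that bind fibrillin, and their transcripts moved in opposite directions with age. Mfap2 (chr4:141010418-141015984, plus strand) was at 101, 110.2 and 111 CPM in the Young Sham libraries and 69.2, 70.6 and 65.7 CPM in those of Aged Sham, and at 113, 110.1 and 104 CPM in Young TBI against 80.5, 80.8 and 70.4 CPM in Aged TBI. The young and aged libraries did not overlap, and the spread within a group was small. The log2 fold change of Mfap2 was −0.65 ± 0.066 in sham mice (edgeR, adjusted p = 0.000531) and −0.50 ± 0.066 in injured mice (adjusted p = 0.00132).

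Mfap5 (chr6:122505845-122529290, plus strand) was at 61.7, 62.3 and 55.0 CPM in the Young Sham libraries and 68.0, 74.2 and 82.8 CPM in those of Aged Sham, and at 65.2, 63.8 and 62.0 CPM in Young TBI against 88.1, 75.8 and 81.3 CPM in Aged TBI. Here each of the 6 aged libraries was above each of the 6 young ones. The log2 fold change was 0.33 ± 0.081 in sham mice (edgeR, adjusted p = 0.0264) and 0.36 ± 0.081 in injured mice (adjusted p = 0.0142). The call in sham mice was lost without Young Sham 3 (adjusted p = 0.120), the library with the lowest Mfap5. The ratio of Mfap5 to Mfap2 counts, which needs no scaling between libraries, was 0.557 ± 0.0602 for Young Sham and 0.584 ± 0.00852 for Young TBI, compared with 1.10 ± 0.145 for Aged Sham and 1.06 ± 0.112 for Aged TBI (SD, n = 3). The highest young ratio was 0.613 and the lowest aged ratio 0.938. The pair was put in a ratio after its values were seen, so the ratio is a description with no test.

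Fbln1 encodes fibulin-1, a glycoprotein found with elastic fibers and in basement membranes (chr15:85205949-85286535, plus strand). Its level was 766, 717 and 828 CPM in the Young Sham libraries and 562, 559.9 and 572 CPM in those of Aged Sham. It was 843, 794 and 809 CPM in Young TBI and 543, 580.3 and 558 CPM in Aged TBI. The aged libraries were close together and all below the young ones, with a coefficient of variation of 1.1% in Aged Sham. On the log2 scale, aged minus young was −0.45 ± 0.057 in sham mice (edgeR, adjusted p = 0.00126) and −0.54 ± 0.057 in injured mice (adjusted p = 0.000529).

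Fbln5 encodes fibulin-5, which links tropoelastin to cells and to crosslinking enzymes and without which mice form poor elastic fibers (chr12:101746565-101819055, minus strand). Its level was 274, 278 and 264 CPM in the Young Sham libraries and 311, 289.7 and 263 CPM in those of Aged Sham, and 284, 275 and 257 CPM in Young TBI against 329, 322 and 325 CPM in Aged TBI. The sham groups overlapped, while each Aged TBI library exceeded each Young TBI library. With age the log2 fold change was 0.085 ± 0.062 in sham mice (edgeR, adjusted p = 0.441) and 0.26 ± 0.062 in injured mice (adjusted p = 0.0192). Age in injured mice was thus called for Fbln5 and age in sham mice was not, but the difference between them, 0.17 ± 0.088, did not pass its own test (adjusted p = 0.658). The count ratio of Fbln5 to Fbln1, also formed after its values were seen, was 0.354 ± 0.0345 for Young Sham and 0.333 ± 0.0146 for Young TBI, compared with 0.511 ± 0.0472 for Aged Sham and 0.581 ± 0.0247 for Aged TBI. No aged library overlapped a young one in this ratio.

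Fbln2 encodes fibulin-2, which binds fibrillin and elastin in vessel walls (chr6:91212455-91272540, plus strand). Its level was 123, 112 and 120 CPM in the Young Sham libraries and 104, 136 and 130.1 CPM in those of Aged Sham, and 138, 131 and 132 CPM in Young TBI against 120.0, 103 and 98.8 CPM in Aged TBI. The sham groups overlapped, and each Aged TBI library lay below each Young TBI library. The change with age, on the log2 scale, was 0.057 ± 0.098 in sham mice (edgeR, adjusted p = 0.778) and −0.32 ± 0.098 in injured mice (adjusted p = 0.0516). Leaving out Young TBI 1 (adjusted p = 0.135), Aged TBI 2 (adjusted p = 0.116) or Aged TBI 3 (adjusted p = 0.141) ended the call in injured mice.

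Emilin1, a glycoprotein at the border of elastin and microfibrils that also restrains TGF-beta processing in mice, was lower in both aged groups (chr5:30913402-30921277, plus strand). Its level was 561, 507 and 589 CPM in the Young Sham libraries and 355, 361 and 298 CPM in those of Aged Sham. It was 595, 512 and 517 CPM in Young TBI and 424, 365 and 377 CPM in Aged TBI. All 6 aged libraries lay below all 6 young ones. On the log2 scale, aged minus young was −0.71 ± 0.093 in sham mice (edgeR, adjusted p = 0.00141) and −0.48 ± 0.093 in injured mice (adjusted p = 0.00725).

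**Figure D3:**
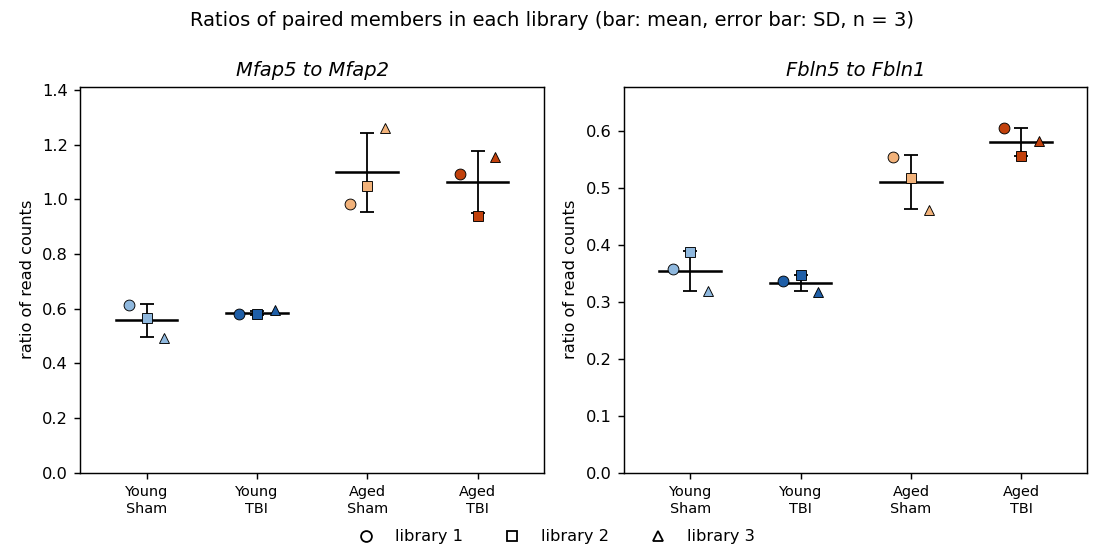
Ratio of read counts within each library (y axis, no unit) for Mfap5 to Mfap2 and for Fbln5 to Fbln1, by group (x axis). Points are libraries, the bar is the mean and the error bar the SD (n = 3). Both ratios were higher in every aged library than in any young one, at 0.938 and above against 0.613 and below for Mfap5 to Mfap2.

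The injury comparisons asked whether the meninges still differed 1.5 months after TBI, within each age. They share the sham libraries with the age comparison in sham mice, so a low or high sham library enters both. In young mice edgeR called 0 of 10 members (0.00548% of all genes). An unadjusted p under 0.05 held for 0 members (4.15% of all genes). DESeq2 called 0 members and 8 genes in all. The log2 fold changes ran from −0.20 ± 0.34 for Fbn2 to 0.19 ± 0.22 for Eln. The Young TBI libraries of Eln and Fbln2 lay above all those of Young Sham, which held for 2 of 10 members and, in either direction, for 11.5% of all genes. The 95% intervals reached from −0.12 to 0.16 for Mfap2 and from −0.14 to 0.14 for Fbln5, on the log2 scale.

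In aged mice 0 of 10 members were called by edgeR after injury (1.65% of all genes) and 4 had an unadjusted p under 0.05 (14.4% of all genes). Those 4 were Mfap4 with a log2 fold change of 0.35 ± 0.11 (edgeR, adjusted p = 0.186), Fbln5 with 0.17 ± 0.062 (adjusted p = 0.226), Mfap2 with 0.17 ± 0.066 (adjusted p = 0.259) and Emilin1 with 0.20 ± 0.093 (adjusted p = 0.343). The Aged TBI libraries of Mfap4, Fbln5 and Emilin1 lay above all those of Aged Sham, which held for 3 of 10 members and, in either direction, for 17.3% of all genes. DESeq2 called 1 member, Mfap4 (0.34, adjusted p = 0.0939), and 636 genes in all. Without Aged Sham 3, the lowest library for Mfap4 and for Emilin1, the changes after injury were 0.20 for Mfap4 (edgeR, adjusted p = 0.247) and 0.12 for Emilin1 (adjusted p = 0.640). Without it 2 members had an unadjusted p under 0.05 (12.6% of all genes), Mfap4 and Mfap5 (0.20, adjusted p = 0.300), while Fbln5 was at 0.11 (adjusted p = 0.428) and Mfap2 at 0.14 (adjusted p = 0.450). Eln, at −0.37 ± 0.22 in aged mice (adjusted p = 0.486), went to 0.047 without that library, and Fbn1 from −0.075 ± 0.11 to 0.072.

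Whether injury acted differently at the 2 ages was tested as the difference of the injury effects. It was called for 0 of 10 members by edgeR (0% of all genes), with an unadjusted p under 0.05 for 2 (7.6% of all genes). DESeq2 called 0 members and 4 genes in all, with 2 members and 1110 genes at an unadjusted p under 0.05. The 2 in edgeR were Fbln2 at −0.38 ± 0.14 (adjusted p = 0.643) and Mfap4 at 0.35 ± 0.16 (adjusted p = 0.653). Without Aged Sham 3 the Mfap4 difference was 0.20 (unadjusted p = 0.0507 in edgeR), which left 1 member, Fbln2, under 0.05.

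The rest of the elastic fiber system was read from a list of 45 genes, all of which were tested. With age 17 were called lower and 7 higher in sham mice (7.71% and 7.89% of all genes), and 17 lower and 6 higher in injured mice (10.3% and 9.92% of all genes), with a median log2 fold change of −0.11 and −0.23. After injury edgeR called 0 of the 45 at either age. An unadjusted p under 0.05 held for 0 in young mice (4.15% of all genes) and 8 in aged mice (14.4% of all genes). Without Aged Sham 3 the 8 became 5 (12.6% of all genes). Without Aged Sham 3 the age comparison in sham mice called 20 of the 45 lower and 5 higher, where 1360 of all genes were lower and 1075 higher.

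Among the crosslinking enzymes and chaperones, 3 of 6 were called lower in each age comparison and 0 higher. Loxl1, the lysyl oxidase relative that acts on elastin together with fibulin-5, was at 434 to 564 CPM in the 6 young libraries and 225 to 292 CPM in the 6 aged ones, without overlap. Its log2 fold change was −0.97 ± 0.11 in sham mice (edgeR, adjusted p = 0.000934) and −0.96 ± 0.11 in injured mice (adjusted p = 0.00078). Loxl2 and the collagen and elastin chaperone Fkbp10 were the other called genes, at −0.50 ± 0.10 and −0.41 ± 0.074 in sham mice. Lox did not pass, at 0.35 ± 0.39 in sham mice (adjusted p = 0.625), and was −0.50 without Aged Sham 3 (adjusted p = 0.0973).

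Of the latent TGF-beta binding proteins and TGF-beta genes, 4 of 7 were called lower in sham mice and 5 of 7 in injured mice, with 0 higher. Ltbp3, Ltbp4, Tgfb1 and Tgfb3 were called in both, at −0.28 to −0.37 in sham mice, and Ltbp1 at −0.45 ± 0.085 in injured mice (edgeR, adjusted p = 0.00657). The call of Ltbp4 in sham mice was lost without Aged Sham 3 (adjusted p = 0.111) and Ltbp1 was called there (−0.28, adjusted p = 0.0407). Tgfb2 was at −0.019 ± 0.12 in sham and −0.059 ± 0.12 in injured mice and did not pass.

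Of the proteoglycans, 4 of 4 were called lower in sham mice and 3 of 4 in injured mice. Versican, encoded by Vcan, which binds microfibrils, was at −0.82 ± 0.24 in sham mice (edgeR, adjusted p = 0.0484), where the libraries overlapped and the call was lost without Aged Sham 3 (adjusted p = 0.111), and at −1.45 ± 0.24 in injured mice (adjusted p = 0.00341). Perlecan, encoded by Hspg2, was at −0.49 ± 0.10 in sham and −0.81 ± 0.10 in injured mice (adjusted p = 0.0113 and 0.000924). Of 5 ADAMTS and ADAMTS-like genes, 2 were lower and 1 higher in both. Adamts17, a microfibril-associated metalloprotease, was at 25.5 to 35.8 CPM in young and 9.74 to 14.5 CPM in aged libraries, with a log2 fold change of −1.43 ± 0.16 in sham mice (adjusted p = 0.000721) and −1.44 ± 0.16 in injured mice (adjusted p = 0.000636). Thsd4, whose product ADAMTSL6 promotes fibrillin-1 assembly in mice, was higher at 0.78 ± 0.18 in both, and at 0.52 in sham mice without Aged Sham 3 (adjusted p = 0.0336), where it was highest at 284 CPM.

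Of 8 relatives of fibulins and emilins, 3 were lower and 1 higher in sham mice, and 2 lower and 1 higher in injured mice. Emilin3 was at −1.12 ± 0.29 in sham mice (edgeR, adjusted p = 0.0323) and −1.02 ± 0.29 in injured mice (adjusted p = 0.0376). In sham mice it was at −0.77 without Aged Sham 3 (edgeR, adjusted p = 0.0163). A fit of only the 6 libraries compared lost the call in sham mice (adjusted p = 0.115). Leaving out Young TBI 3 (adjusted p = 0.102) or Aged TBI 3 (adjusted p = 0.104) ended the call in injured mice. The hemicentin gene Hmcn1 and Fbln7 were at −0.89 ± 0.20 and −0.69 ± 0.11 in sham mice. Without Aged Sham 3 they were at −0.67 and −0.59 (edgeR, adjusted p = 0.0185 and 0.00641). The genes called higher were the multimerin Mmrn1 in sham mice (0.66 ± 0.18, not called without Aged Sham 3, adjusted p = 0.112) and the fibulin-3 gene Efemp1 in injured mice (0.46 ± 0.10).

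Genes for proteases able to cleave elastin or its scaffold were the role with most rises, 4 of 8 higher in each age comparison, with 0 lower in sham and 1 lower in injured mice, the gelatinase gene Mmp2 at −0.68 ± 0.21. The comparison in sham mice also called 3 lower without Aged Sham 3, Mmp2 (−0.82, edgeR, adjusted p = 0.0041), Ctsk (−0.49, adjusted p = 0.0897) and Ctsl (−0.19, adjusted p = 0.0404). The macrophage elastase Mmp12 was at 2.52 to 3.67 CPM in young and 6.19 to 9.0 CPM in aged libraries, with a log2 fold change of 1.35 ± 0.19 in sham mice (edgeR, adjusted p = 0.00214) and 1.04 ± 0.19 in injured mice (adjusted p = 0.00535). The neutrophil granule protease Elane was at 1.15 to 6.30 CPM in young and 8.84 to 21.0 CPM in aged libraries. Ctsg, also a neutrophil granule protease, was at 0.673 to 3.19 CPM in young libraries, resting on 6 to 40 counts. In aged libraries Ctsg was at 3.81 to 10.0 CPM. Elane and Ctsg were at 2.17 ± 0.46 and 2.40 ± 0.51 in sham and 1.63 ± 0.44 and 1.82 ± 0.47 in injured mice, and cathepsin S, Ctss, at 0.67 ± 0.10 and 0.68 ± 0.10. These 4 are made by leukocytes, and of 4 leukocyte markers (Ptprc, Cd3e, Cd79a and Lyz2) 2 were called higher with age in sham mice and 3 in injured mice. The markers summed to 638 to 759 CPM in young and 754 to 1039 CPM in aged libraries. Most of that sum was Lyz2, at 578 to 698 CPM in young and 674 to 927 CPM in aged libraries. The part of the markers in the protease levels was not tested. Of 7 genes for integrins and the elastin receptor, Itgb5 was called lower in both. Itgb3 was called higher in sham mice (1.53 ± 0.52, adjusted p = 0.0888) through Aged Sham 3, at 155 CPM against 22.5 to 35.3 CPM elsewhere, and was at 0.27 without it (adjusted p = 0.372).

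**Figure D4:**
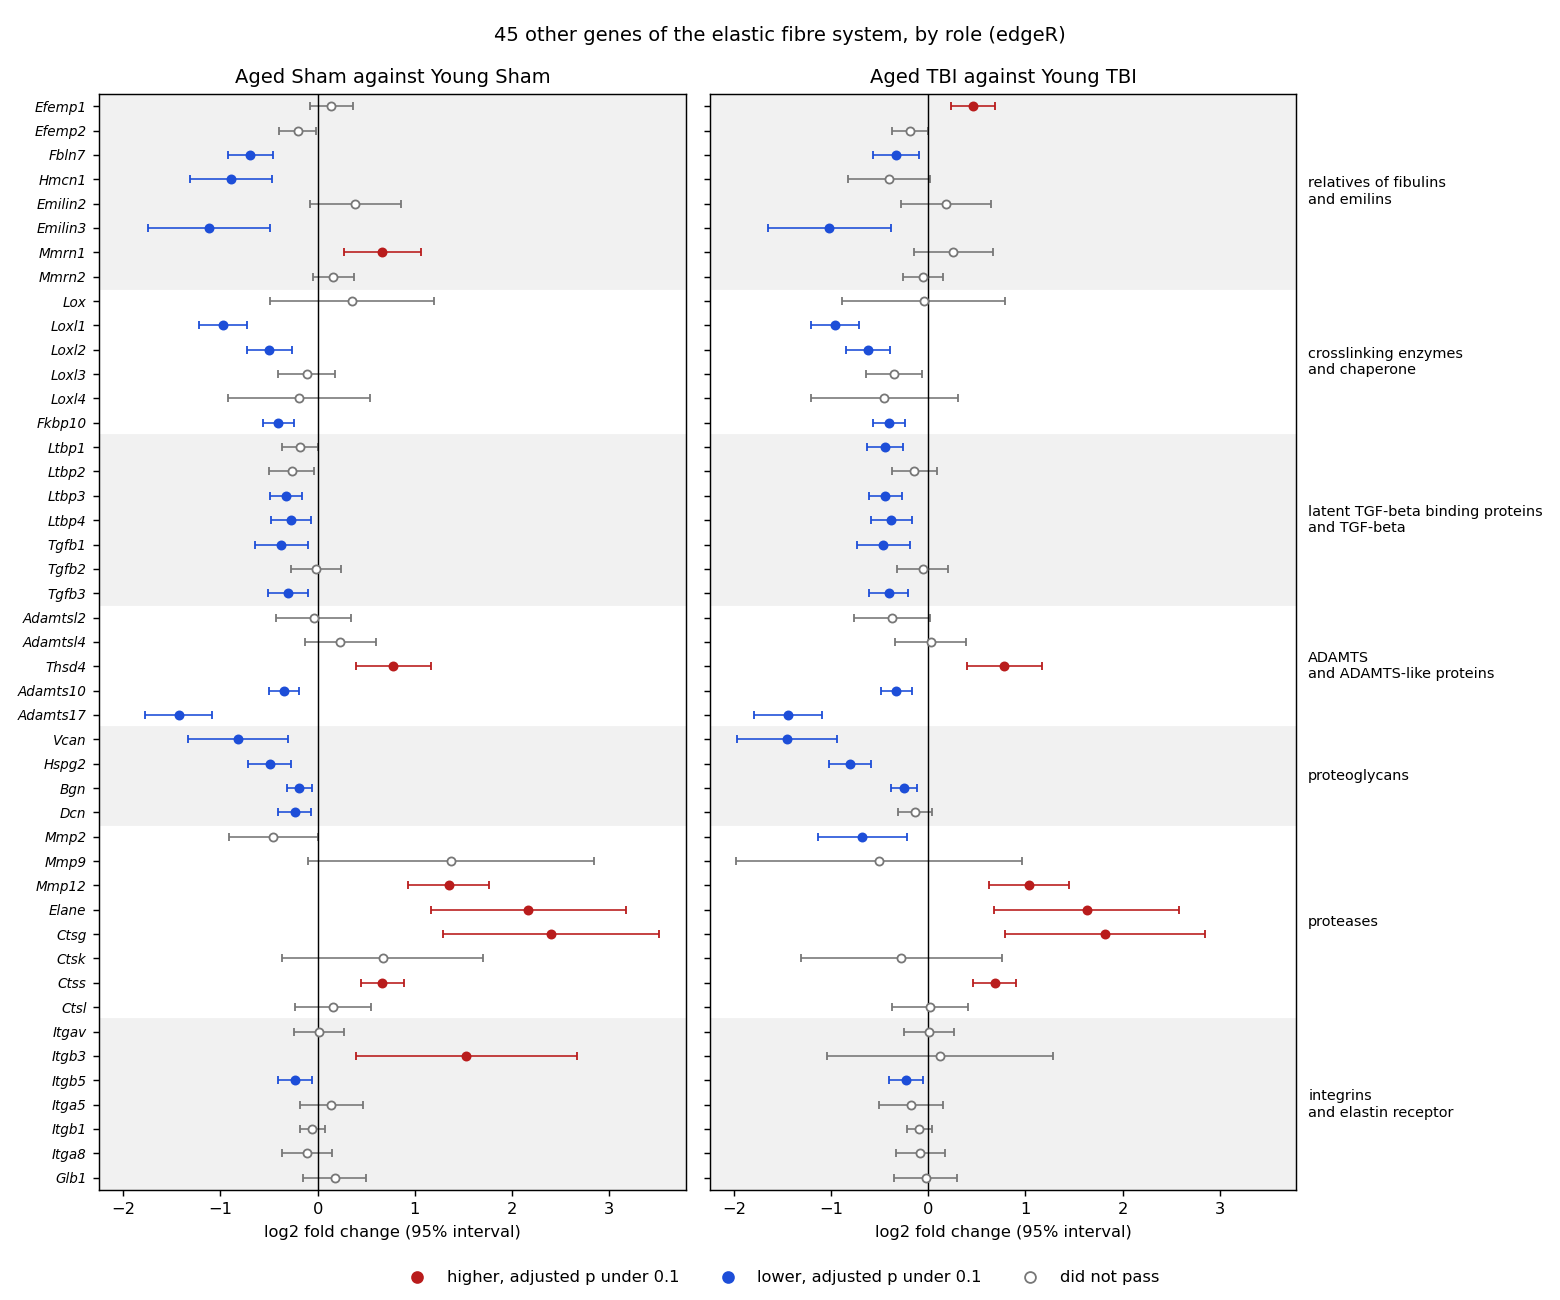
Log2 fold change with its 95% interval (x axis) of 45 other elastic fiber genes (y axis, grouped by role in the shaded bands) for aged against young mice, sham on the left and injured on the right. Filled points passed an adjusted p under 0.1, with 17 lower and 7 higher in sham mice and 17 lower and 6 higher in injured mice.

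The markers of the cells that usually make these proteins moved with age as well. Of 7 fibroblast markers, 3 were called lower in sham mice (Col1a1, Col1a2 and Dpt) and 4 in injured mice (the same 3 and Lum), with 0 higher. Summed, they ran from 12781 to 16814 CPM in young and from 7299 to 8803 CPM in aged libraries, a sum carried by the collagen genes Col1a1 and Col1a2. The other markers did not pass in sham mice, with Lum at −0.40 ± 0.17, Pi16 at −0.24 ± 0.17, Pdgfra at 0.20 ± 0.16 and Cd34 at 0.23 ± 0.12. Pdgfra was highest in Aged Sham 3, at 219 CPM against 125 to 155 CPM elsewhere. Without that library Pdgfra was at −0.095 in sham mice (edgeR, adjusted p = 0.386), Lum was called lower (−0.58, adjusted p = 0.0492) and the call of Dpt was lost (adjusted p = 0.225). Of 6 smooth muscle markers, 1 (Acta2, −0.47 ± 0.12, adjusted p = 0.0341) was lower in sham mice and 0 passed in injured mice, where Acta2 (−0.27) and Myh11 (−0.32) were called lower without Aged Sham 3 (adjusted p = 0.0389 and 0.0859), with sums of 901 to 1098 CPM in young and 647 to 979 CPM in aged libraries. Pericyte markers were lower for 2 of 4 genes in each comparison. No marker in these 3 lists was at 0 in any library. The 4 arachnoid markers (Cldn11, Slc47a1, Cdh1 and Dpp4), which check the labelled tissue, summed to 735 to 909.7 CPM over the 12 libraries. Slc47a1 made up most of that sum (429 to 649 CPM), and 2 of the 4 were called higher with age in each comparison. The part of all these markers in the levels of the 10 genes was not tested.

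Of 13051 genes with a mean of at least 5 CPM, those most like Eln across the 12 libraries, by Pearson r of log2 CPM, were Myo1c (0.978), Fgfr1 (0.960), Tnfrsf1a (0.958), Nol12 (0.953) and Fbxo31 (0.947). Without Aged Sham 3 their r ran from 0.914 to 0.973. Those most like Fbn1 were Cdk16 (0.966), Tgfb1 (0.958), Itih5 (0.951), Mmp14 (0.949) and C1qtnf6 (0.948), at 0.948 to 0.966 without that library. The points share their libraries and depth and fall into young and aged sets, so these values describe likeness only.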

How the data were processed

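Members and gene lists were chosen with earlier results of these data known. The deposited values were raw counts per gene in 12 libraries. Per the study's methods and the submitters' processing notes, the authors used HISAT2 for alignment to mm10, SAMtools for filtering, which took out duplicate and uninformative reads, and HTSeq for counting; versions, annotation release and strand setting are not given in the sources used here. GENCODE M21 exons of 4 members overlap a gene on the other strand (Eln with Gm30003, Fbn1 with Gm9913, Fbn2 with Gm26507, Mfap4 with Mapk7), and reads there could not be told apart if counting ignored strand. Those listed beside Eln and Fbn1 held at most 10 and 4 counts per library, and Mapk7 351 to 707 counts.

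Counts were analysed in R 4.3.3 with edgeR 4.0.16 (limma 3.58.1). Genes were kept by filterByExpr (18238 of 55385 rows, 99.8% of counts) and scaled by TMM (factors 0.969 to 1.036). Contrasts came from the quasi-likelihood model, in which each group had its own mean, with two-sided p-values adjusted by Benjamini-Hochberg over all genes of a contrast and called under 0.1. Errors of fold changes are standard errors. The script was tested on simulated data. Levels per kilobase used the union of GENCODE M21 exons. Per comparison by age, the text names all members and, of the wider list, the 5 called genes with the largest fall and rise whose libraries did not overlap and whose mean reached 1 CPM, and other genes of that list, chosen after their values were seen, where a role's count needs them. The 5 genes most like Eln and Fbn1 were ranked by Pearson r. Alternatives were DESeq2 1.42.0, other scaling (RLE factors, library totals), no filter, only the 6 libraries compared, a replicate block, a threshold of 0.05 and leaving out each library; those for the wider list and likeness were added after seeing the data. The authors' own analysis used DESeq2. P-values measure the spread between pooled libraries, and no 2 libraries of the same group were alike within sampling noise.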

Additional observations from a re-analysis of the deposited data

Results flagged for a closer look

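For Eln, each Young TBI library (313 to 328 CPM) lay above the mean of Young Sham (279 CPM) and each Aged TBI library (213 to 244 CPM) below the mean of Aged Sham (289.9 CPM). The difference of the injury effects was −0.56 ± 0.32 on the log2 scale and did not pass its test (edgeR, adjusted p = 0.693), and it was −0.15 without Aged Sham 3 (adjusted p = 0.855). For Fbln2, each Young TBI library (131 to 138 CPM) lay above the mean of Young Sham (118 CPM) and each Aged TBI library (98.8 to 120.0 CPM) below that of Aged Sham (123 CPM). That difference was −0.38 ± 0.14 and did not pass either (adjusted p = 0.643), and it was −0.33 without Aged Sham 3 (adjusted p = 0.614).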

How the results depend on the processing

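With 1 library left out in turn, edgeR called 4 to 7 of the 10 members for age in sham mice. It called 6 to 9 for age in injured mice, and 0 in each injury comparison and in the difference of the injury effects. Of the 45 other genes it called 16 to 25 and 19 to 25 in the age comparisons. Calls over all genes for age in sham mice were fewest without Young Sham 3 (576 higher, 650 lower). They were most numerous without Aged Sham 1 (1911 higher, 1733 lower). For age in injured mice the fewest came without Young TBI 1 (959, 1158) and the most without Aged Sham 3 (2226, 2269). For injury in aged mice some fits, as without Young Sham 3, called 0 genes, and 55 higher and 278 lower passed without Young TBI 2. For injury in aged mice, where edgeR called 0 members, 1 (Mfap4) was called with no filter on low counts (0.36, adjusted p = 0.0462) and 1 by DESeq2 (0.34, adjusted p = 0.0939). Calls over all genes rose as well, from 71 higher and 230 lower to 225 and 481 with no filter and 155 and 481 by DESeq2. For age in sham mice the count was 5 at a threshold of 0.05, with library totals (Fbn1 −0.28, adjusted p = 0.114) and in a fit of only the 6 libraries compared (Fbn1 adjusted p = 0.157). It was 6 in DESeq2, with RLE scaling and with no filter. Of these settings, the threshold of 0.05 called the fewest of all genes (855 higher, 900 lower) and library totals the most (1943 higher, 987 lower). For age in injured mice the count was 7 to 9. Eln was called with no filter (−0.50, adjusted p = 0.0512), in 6 libraries (−0.52, adjusted p = 0.00238) and without Aged Sham 1 (adjusted p = 0.0467). Apart from fits that left out a library, the fewest of all genes were called at 0.05 (1149 higher, 1284 lower). The most were called with library totals (3195 higher, 1257 lower).

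Scaling by library totals moved the median of all genes by 0.0458 in sham and 0.0753 in injured mice and the share of called genes that were higher to 66.3% and 71.8% (1439 of 2845 and 1809 of 3683 by TMM), with the members called in the same directions. Log2 changes near 0 changed sign for injury in young mice: Fbn1 with totals (−0.0108), Mfap4 with RLE factors (0.00207), 6 libraries (0.00247) and DESeq2 (0.00158), and Fbln5 with totals (−0.0143), no filter (−0.00207) and the replicate block (−0.000801). In aged mice Fbln1 did so with totals (0.00575). With 1 library left out, signs changed in young mice after injury for Fbn1 (−0.054 to 0.078), Mfap2 (−0.015 to 0.059), Mfap4 (−0.055 to 0.068), Fbln5 (−0.022 to 0.048) and Emilin1 (−0.093 to 0.030), and in aged mice for Eln (−0.61 to 0.047), Fbn1 (−0.16 to 0.072), Fbn2 (−0.18 to 0.64) and Fbln1 (−0.035 to 0.014). The same held for age in sham mice for Eln (−0.36 to 0.29) and Fbln2 (−0.020 to 0.16), for age in injured mice for Fbn2 (−0.67 to 0.16), and for the difference of the injury effects for Fbn1 (−0.17 to 0.068) and Mfap5 (−0.044 to 0.11). The cause was not tested.

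Libraries with the same replicate number did not visibly deviate together. Deviations correlated at −0.22 to 0.14 for same-numbered libraries (median −0.0122, 18 pairs) and at −0.20 to 0.20 for others (36 pairs). With 3 libraries a group, these values cannot exclude a batch shared by number. With the number as a block, 5 members were called for age in sham mice (Fbn1 at an adjusted p of 0.139), 8 for age in injured mice and 0 in the other comparisons. Over all genes the block called 1237 higher and 1239 lower for age in sham mice, and 1593 and 1717 in injured mice.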

Other observations

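Around the group means, some members varied together from library to library. Deviations of Mfap4 and Emilin1 correlated at r = 0.795 over the 12 libraries and at 0.703 without Aged Sham 3. For Eln and Fbn1 r was 0.780 and 0.371 without that library, for Eln and Mfap4 −0.769 and 0.196, and for Eln and Fbln2 0.641 and 0.936. These pairs were chosen after their values were seen, they share libraries and depth, and the values are a description.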
